A study of Mus musculus with 10 samples.

Results

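The 10 genes described here encode the core of MHC class I antigen presentation and its regulators in mouse: the heavy chains H2-K1 and H2-D1, the light chain B2m, the immunoproteasome subunits Psmb8 and Psmb9, the peptide transporter subunits Tap1 and Tap2, the loading factor Tapbp, and the transcriptional regulators Nlrc5 and Irf1. A peak was taken as theirs when it overlapped the gene or lay within 5000 bp of a gene end, the nearest gene end deciding between several protein-coding or listed genes. Of 37513 peaks in the deposited table, 19 met this rule, at 9 of the 10 genes. Psmb9 had no peak of its own because the peak over its start lay nearer to Tap1. All 19 peaks were tested; 12 lay within 1000 bp of a gene end, 5 lay deeper within a gene and 2 lay farther outside it, and 9 had more than 1 gene in reach.

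The data are ATAC-seq, in which the transposase Tn5 inserts adapters into open chromatin, from nuclei cut by laser out of frozen tissue sections of wild-type C57BL/6J mice, an inbred laboratory strain. The groups were brain with 50 nuclei captured one by one (n = 2), brain with about 200 nuclei captured as 10 small areas (n = 2), lung with 50 nuclei (n = 3) and lung with about 200 nuclei (n = 3). The nuclei were picked at random and the labels call the replicates technical, without giving the number of mice, so p-values measure the spread between captures. The mice's age and sex and the brain region were not given in the sources used here.

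Reads in nuclear peaks numbered 319307 to 465489 in the brain libraries and 340697 to 3075377 in the lung libraries, so that 1 read was worth 2.15 to 3.13 reads per 1000000 nuclear-peak reads (RPM) in brain and 0.325 to 2.94 RPM in lung. Mitochondrial DNA took 93.4% to 95.8% of reads in peaks in brain and 24.7% to 58.0% in lung, and it is left out of RPM. Lung 50-nuclei replicates 2 and 3 stood apart, with reads in 60.9% and 56.1% of nuclear peaks, against 86.2% to 97.6% in the other 8 libraries. The tissue labels were borne out by marker genes: summed over 15 peaks at 9 neuronal genes, brain libraries had 312 to 426 RPM and lung libraries 21.9 to 99.8 RPM, and over 29 peaks at 7 alveolar type 1 genes, brain had 198 to 271 RPM and lung 436 to 696 RPM.

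MHC class I molecules display peptides from inside the cell to cytotoxic T cells and natural killer cells. The proteasome cuts proteins into peptides, interferon replaces some of its subunits by immunoproteasome subunits, the TAP transporter moves peptides into the endoplasmic reticulum, and tapasin holds the heavy chain and beta-2-microglobulin ready for loading. NLRC5 drives the promoters of these genes together with RFX, CREB and NF-Y proteins bound there, and IRF1 carries the interferon signal. Most cells of the body, endothelium among them, carry class I molecules, whereas resting neurons are known for low levels.

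The sequences below are the 250 bases before the annotated start of 5 of the genes (RefSeq, GRCm38.p6, the assembly of mm10). Each is shown on the gene's strand, and a peak of this study lies over each of these sequences. They are H2-K1 at chr17:34000334-34000583 (minus strand, the downstream one of 2 annotated starts), H2-D1 at chr17:35262844-35263093, B2m at chr2:122147437-122147686, Tap1 at chr17:34187306-34187555 and Irf1 at chr11:53769764-53770013 (the upstream of 2 starts), the last 4 on the plus strand. Capitals mark matches to 6 motifs searched on both strands: the interferon-stimulated response element (a pair of GAAA with any 2 bases between them), a shorter form of it GAANNGAAA, the gamma-activated site TTCNNNGAA, the kappa B motif (GGG, any 2 bases, TT, any base, CC), the CCAAT box CCAAT (bound by NF-Y) and the cAMP response element core TGACG. The shorter form was added after the sequences were seen, and the motifs do not overlap in the windows shown.
H2-K1: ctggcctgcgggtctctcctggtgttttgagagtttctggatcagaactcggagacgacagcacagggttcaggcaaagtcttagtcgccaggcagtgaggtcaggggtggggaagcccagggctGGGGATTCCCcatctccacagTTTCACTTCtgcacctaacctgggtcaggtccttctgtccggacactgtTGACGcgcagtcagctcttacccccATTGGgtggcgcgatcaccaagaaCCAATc
H2-D1: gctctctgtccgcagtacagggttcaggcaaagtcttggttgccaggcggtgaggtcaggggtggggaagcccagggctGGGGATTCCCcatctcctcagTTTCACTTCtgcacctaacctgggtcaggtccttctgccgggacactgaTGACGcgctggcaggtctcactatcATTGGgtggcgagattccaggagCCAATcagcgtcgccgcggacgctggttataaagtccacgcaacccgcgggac
B2m: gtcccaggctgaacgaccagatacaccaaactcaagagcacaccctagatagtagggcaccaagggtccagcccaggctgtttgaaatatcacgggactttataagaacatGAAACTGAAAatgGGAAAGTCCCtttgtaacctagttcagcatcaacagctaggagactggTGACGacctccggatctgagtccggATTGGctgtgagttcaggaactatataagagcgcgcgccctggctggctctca
Tap1: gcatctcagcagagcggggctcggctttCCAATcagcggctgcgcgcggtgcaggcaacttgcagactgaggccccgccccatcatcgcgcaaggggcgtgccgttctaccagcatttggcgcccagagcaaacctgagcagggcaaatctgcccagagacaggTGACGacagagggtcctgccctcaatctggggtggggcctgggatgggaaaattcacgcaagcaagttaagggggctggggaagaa
Irf1: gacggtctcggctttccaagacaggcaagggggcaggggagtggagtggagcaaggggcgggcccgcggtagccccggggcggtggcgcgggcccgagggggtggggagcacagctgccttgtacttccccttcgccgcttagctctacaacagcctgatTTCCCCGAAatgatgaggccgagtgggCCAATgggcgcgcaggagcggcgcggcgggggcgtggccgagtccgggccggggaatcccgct

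The heavy-chain windows of H2-K1 and H2-D1 had the same motifs in the same order: kappa B, the shorter interferon element on the opposite strand, TGACG, and a CCAAT box on each strand. Over 203 aligned bases they were identical at 177, or 87.2%, so reads at these paralogues may have been placed at the wrong copy. B2m held the full interferon element, a kappa B match on the opposite strand, TGACG and a CCAAT box. In Tap1 only TGACG and CCAAT matched, and in Irf1 a gamma-activated site and CCAAT. Peaks also lay over windows of Tapbp, Psmb9, the downstream Irf1 start and the upstream H2-K1 start, which are not shown. Tapbp held only CCAAT boxes, Psmb9 only TGACG and a CCAAT box, and the downstream Irf1 window no match. The upstream H2-K1 window held the motifs of the one shown, without the CCAAT box on the gene's strand. Of all 32851 promoter windows of this length in RefSeq, 2.98% held the full interferon element, 6.31% its shorter form, 7.02% the gamma-activated site, 4.11% the kappa B motif, 33.8% CCAAT and 17.8% TGACG. A match describes letters and does not show that a factor was bound. The promoter table had 10 windows for 8 of the genes, and none for Tap2 and Nlrc5.

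Compared with lung, brain chromatin was less accessible at the starts of both heavy-chain genes, of B2m and of Irf1, and at a peak upstream of H2-D1. These 5 of the 19 peaks passed the test (edgeR quasi-likelihood test over 37466 peaks, adjusted p at 0.05). All 5 were lower in brain, and none of the 19 was called higher. Of the 5 calls, only that at the H2-D1 start was kept without any 1 of the 10 libraries. The Irf1 call was lost in 7 of 10 such omissions and in 3 of 8 other settings, where no other call was lost. Over all tested peaks, 10.2% were called, 4.39% lower in brain and 5.76% higher; of these 19 peaks, 26.3% were lower. Among the 13783 tested peaks within 1000 bp of a gene end, 1.63% were called lower in brain and 6.19% higher. The 5 called peaks had a median width of 368 bp, against 178 bp for the 19 and 164 bp for all nuclear peaks. Their mean lung levels lay above those of 83.4% to 98.5% of peaks. A comparison with peaks of like width or level was not made. The median log2 fold of the 19 peaks was -0.70, with 13 below 0, and that of all tested peaks was 0.07. Scaling by library totals, which include mitochondrial reads, would call 80.3% of all peaks lower in brain, so every direction here is relative to other nuclear peaks. Nuclei were pooled, so fewer cells with an open site and a less open site in each cell cannot be told apart.

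**Figure D1:**
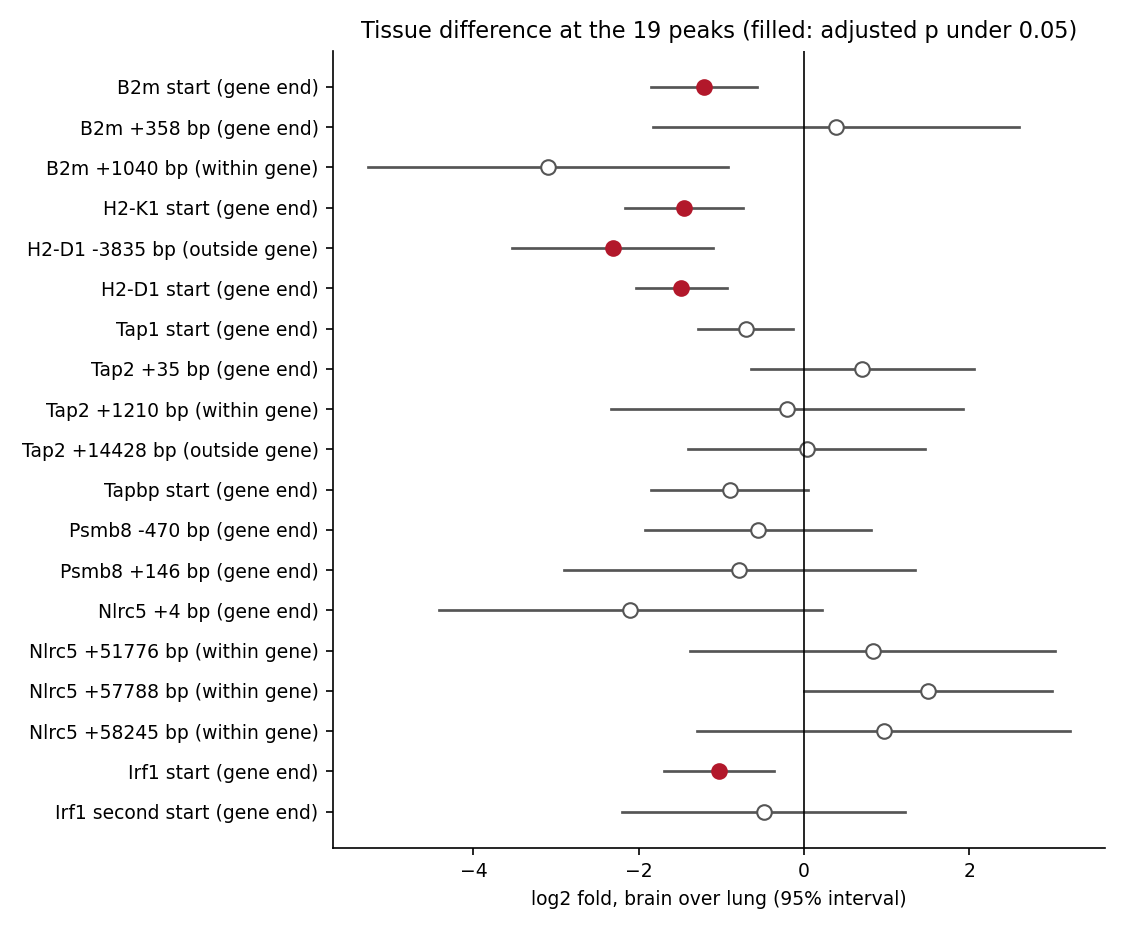
Log2 fold of brain over lung on the horizontal axis for the 19 peaks, averaged over both mini-bulk sizes, with 95% intervals. Labels give the gene and whether the peak covers an annotated start, or the distance in bp of its centre from the gene end with the lower coordinate. The 5 filled points have an adjusted p under 0.05 and lie between -2.31 and -1.03, all below 0; the 3 peaks deep within Nlrc5 lie above 0, and 2 of their intervals hold 0.

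H2-K1 encodes one of the classical heavy chains of the C57BL/6 haplotype. Its peak at chr17:34000219-34000558 covers both annotated starts. It had 49.3 and 21.9 RPM in brain at 50 nuclei and 37.6 and 38.7 RPM in brain at 200 nuclei, against 111, 167 and 62.1 RPM in lung at 50 nuclei and 94.8, 72.5 and 113 RPM in lung at 200 nuclei. Every brain library lay below every lung library. The mean was 36.9 ± 11.3 RPM in brain (SD, n = 4) and 103 ± 37.3 RPM in lung (SD, n = 6), a log2 fold of -1.45 ± 0.35 (SE, edgeR adjusted p = 0.00555), or 2.74-fold lower in brain. The call was lost without brain 50-nuclei replicate 2 (log2 fold -1.23, edgeR adjusted p = 0.0745).

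H2-D1, the other classical heavy chain, had 2 peaks. The start peak at chr17:35262676-35263180 had 49.3 and 50.1 RPM in brain at 50 nuclei and 95.3 and 51.6 RPM in brain at 200 nuclei, against 183, 185 and 210 RPM in lung at 50 nuclei and 142, 170 and 140 RPM in lung at 200 nuclei. The groups did not overlap, and the highest brain library, 200-nuclei replicate 1, stood well above the other 3. With 61.6 ± 22.5 RPM in brain (SD, n = 4) and 172 ± 27.0 RPM in lung (SD, n = 6), the log2 fold was -1.49 ± 0.27 (SE, edgeR adjusted p = 0.000329). This call was kept without any 1 of the 10 libraries, with log2 folds from -1.72 to -1.31.

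The upstream peak at chr17:35259170-35259348, centred 3835 bp before the H2-D1 gene, had 19.2 and 12.5 RPM in brain at 50 nuclei and 2.51 and 6.44 RPM in brain at 200 nuclei. In lung it had 59.7, 32.3 and 21.9 RPM at 50 nuclei and 54.9, 50.5 and 38.7 RPM at 200 nuclei. Again no brain library reached a lung library, although the brain values rest on 15 reads in all, against 352 in lung. The log2 fold was -2.31 ± 0.60 (SE, edgeR adjusted p = 0.00981), or 4.98-fold lower in brain. It was not called without brain 50-nuclei replicate 2 (-2.19, adjusted p = 0.0724 by edgeR) or brain 200-nuclei replicate 1 (-2.06, adjusted p = 0.0848).

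B2m encodes the invariant light chain. Its start peak at chr2:122147449-122147817 had 49.3 and 37.6 RPM in brain at 50 nuclei and 30.1 and 70.9 RPM in brain at 200 nuclei, against 99.5, 117 and 130 RPM in lung at 50 nuclei and 133, 106 and 81.3 RPM in lung at 200 nuclei. All brain libraries lay below all lung libraries; this held for 4 of the 19 peaks, the ones at the B2m, H2-K1 and H2-D1 genes that were called, and for 4.94% of all tested nuclear peaks. At none of the 19 did all brain libraries lie above all lung libraries, against 8.4% of all. The log2 fold at the B2m start was -1.21 ± 0.32 (SE, edgeR adjusted p = 0.0111). The call was lost without brain 50-nuclei replicate 2 (-1.12, edgeR adjusted p = 0.0841) or brain 200-nuclei replicate 1 (-0.96, adjusted p = 0.117).

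Further into B2m, a narrow peak centred 1040 bp from the gene start (chr2:122148680-122148773) had 2.74 and 0 RPM in brain at 50 nuclei and 0 and 8.59 RPM in brain at 200 nuclei. In lung it had 21.3, 0 and 56.6 RPM at 50 nuclei and 21.6, 22.7 and 17.6 RPM at 200 nuclei. Lung 50-nuclei replicate 2 alone among the lung libraries had no read there. The log2 fold was -3.10 ± 1.08 (SE) and missed the threshold (edgeR adjusted p = 0.0585), and without that library it was called (-3.37, adjusted p = 0.0101). With all 10 libraries it was called by DESeq2 (DESeq2 adjusted p = 0.0441) and with nuclear-peak totals (edgeR adjusted p = 0.0479). It was not called with relative-log-expression size factors (edgeR adjusted p = 0.0598), edgeR's default filter (0.0939) or the replicate number as a block (0.192). The B2m peak centred 358 bp from the start held 12 reads in brain and 46 in lung, with a log2 fold of 0.39 (95% interval -1.82 to 2.60).

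**Figure D2:**
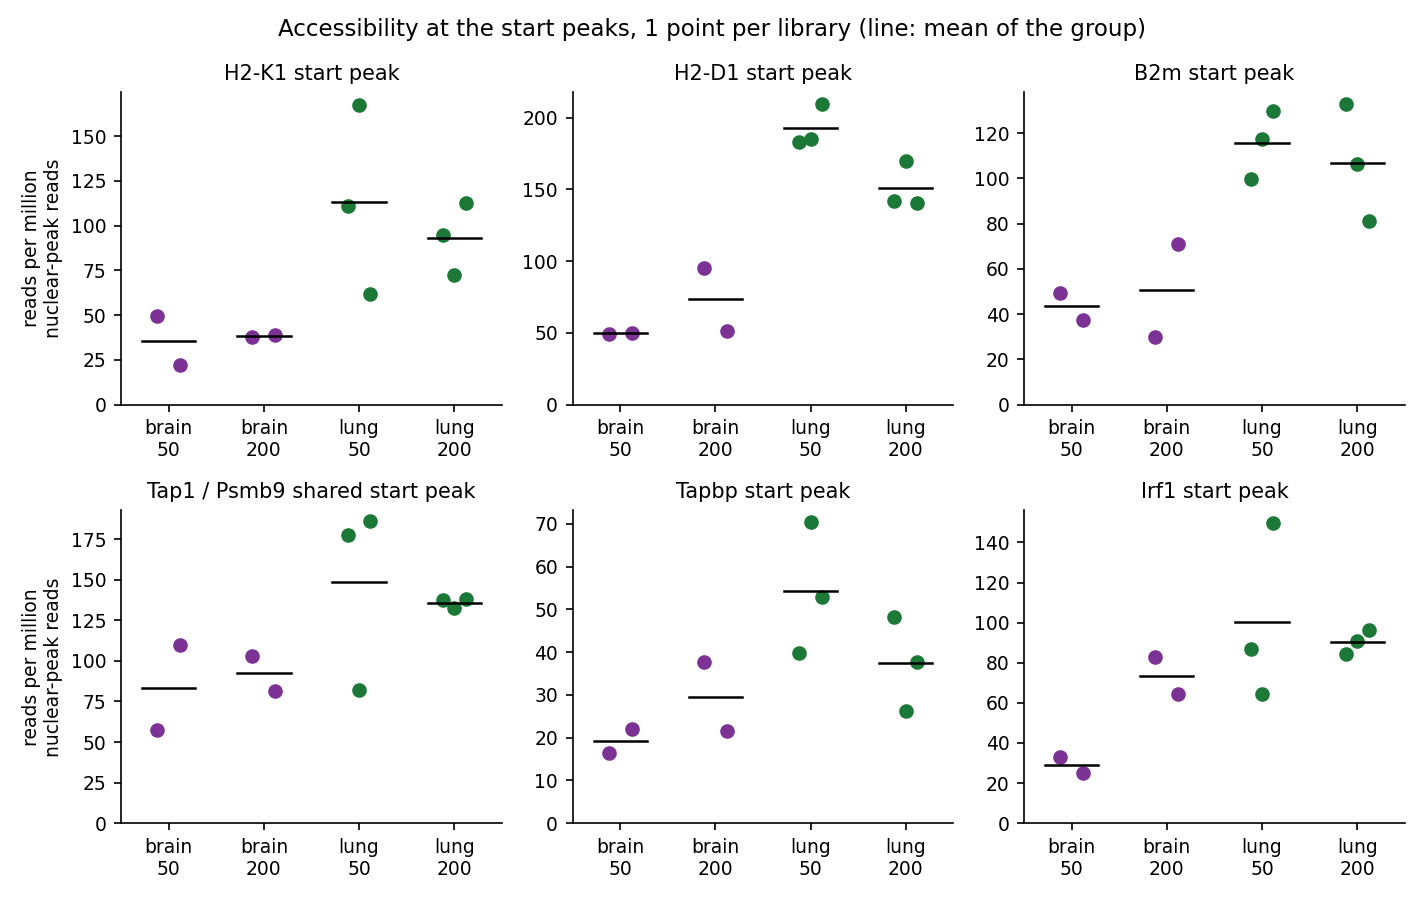
Accessibility in RPM (vertical axis, from 0) at 6 peaks over annotated starts, with 1 point per library, brain in purple and lung in green, 50 and 200 nuclei side by side, and a line at each group's mean. Brain and lung points do not overlap at H2-K1, H2-D1 and B2m; they overlap at Tap1 with Psmb9, at Tapbp and at Irf1, where brain at 50 nuclei lies at 32.8 and 25.1 RPM and brain at 200 nuclei at 82.7 and 64.4 RPM.

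No peak at the genes of peptide supply and loading was called different between the tissues with all libraries. Psmb9, an interferon-induced catalytic subunit of the immunoproteasome, and Tap1 are transcribed away from each other from starts 226 bp apart, and 1 wide peak at chr17:34187245-34187874 covers both. It had 57.5 and 110 RPM in brain at 50 nuclei and 103 and 81.6 RPM in brain at 200 nuclei, against 178, 82.2 and 186 RPM in lung at 50 nuclei and 137, 132 and 138 RPM in lung at 200 nuclei. Lung 50-nuclei replicate 2 was the only lung library within the brain range. The log2 fold of -0.70 ± 0.28 (SE) missed the threshold (95% interval -1.28 to -0.13, edgeR adjusted p = 0.108), and it was called without that library (-0.86, adjusted p = 0.0179).

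Psmb8, the other immunoproteasome subunit of this cluster, had a peak on each side of its start. The upstream one (chr17:34197639-34197811), also in reach of Tap1, had 13.7 and 12.5 RPM in brain at 50 nuclei and 10.0 and 21.5 RPM in brain at 200 nuclei, against 19.9, 35.2 and 31.0 RPM in lung at 50 nuclei and 16.6, 15.4 and 17.6 RPM in lung at 200 nuclei. Brain and lung overlapped through brain 200-nuclei replicate 2. Its log2 fold was -0.56 (95% interval -1.92 to 0.81), and that of the downstream peak (chr17:34198284-34198398), with 9 reads in brain and 87 in lung, was -0.78 (95% interval -2.90 to 1.34), moving to -0.30 without brain 200-nuclei replicate 1 and -3.51 without replicate 2. Both intervals hold 0 and a fold as large as that of the heavy chains.

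Tap2, the partner of Tap1 in the transporter, had a peak at the gene end with the lower coordinate (chr17:34204432-34204596) with 16.4 and 21.9 RPM in brain at 50 nuclei and 27.6 and 32.2 RPM in brain at 200 nuclei, against 9.95, 2.94 and 21.9 RPM in lung at 50 nuclei and 16.6, 15.4 and 22.4 RPM in lung at 200 nuclei. Its mean was 24.5 ± 6.86 RPM in brain (SD, n = 4) and 14.9 ± 7.44 RPM in lung (SD, n = 6), and the log2 fold of 0.71 ± 0.67 (SE) was not called (edgeR adjusted p = 0.537). The upper bound of its 95% interval was 2.06 and the lower bound -0.65, above the fold at the H2-K1 start; the difference between the genes was not tested. The other Tap2 peaks, within the gene (chr17:34205644-34205734) and 2586 bp beyond its far end (chr17:34218796-34219019), had log2 folds of -0.21 and 0.03.

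Tapbp encodes tapasin. Its start peak at chr17:33919377-33919673, with Daxx and Zbtb22 also in reach, had 16.4 and 21.9 RPM in brain at 50 nuclei and 37.6 and 21.5 RPM in brain at 200 nuclei, against 39.8, 70.4 and 52.9 RPM in lung at 50 nuclei and 48.2, 26.4 and 37.7 RPM in lung at 200 nuclei. Brain 200-nuclei replicate 1 and lung 200-nuclei replicate 2 crossed. The log2 fold of -0.90 ± 0.47 (SE) missed the threshold (95% interval -1.85 to 0.05, edgeR adjusted p = 0.228).

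**Figure D3:**
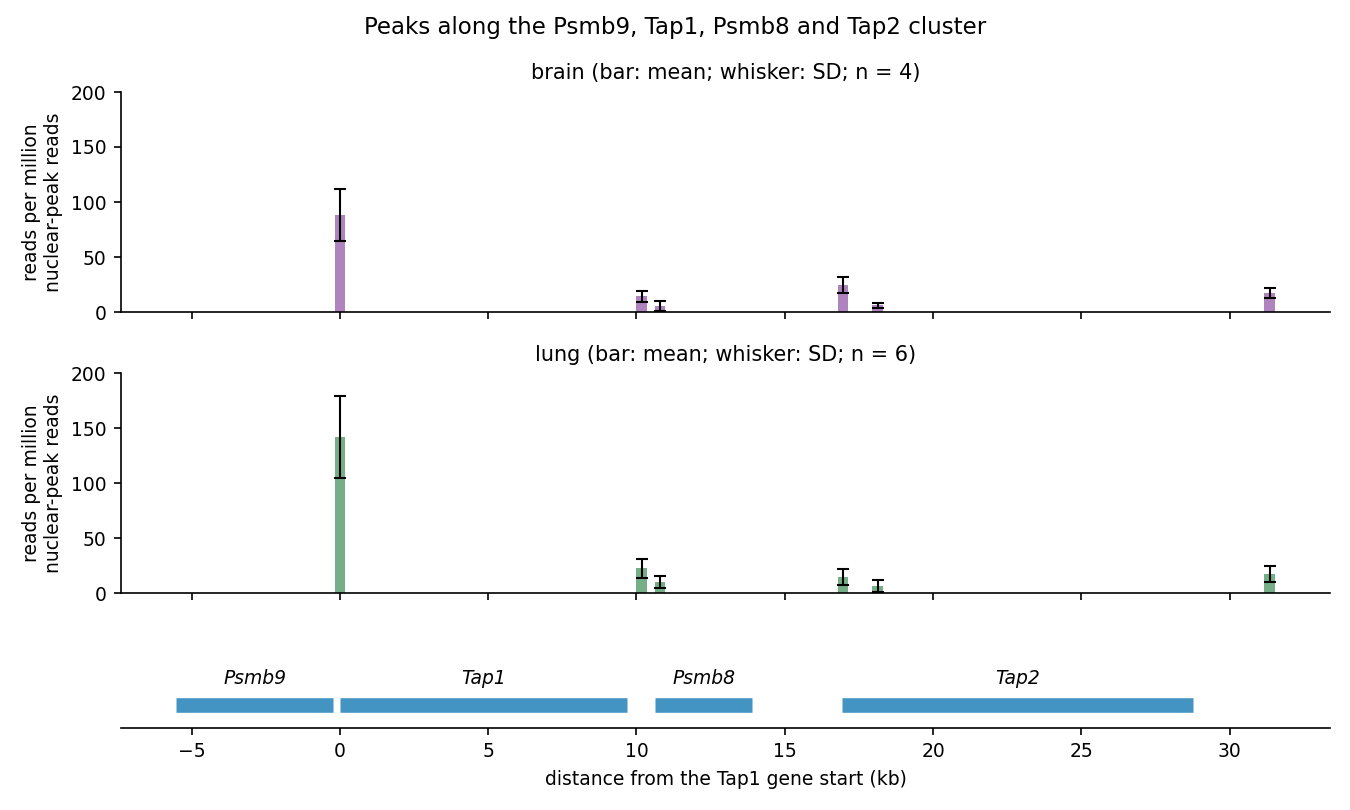
Mean RPM with SD at the peaks along the Psmb9, Tap1, Psmb8 and Tap2 cluster, brain above (n = 4) and lung below (n = 6), against distance in kb from the Tap1 gene start, with gene extents as bars. The peak between Psmb9 and Tap1 is the tallest in both tissues, at 87.9 RPM in brain and 142 RPM in lung; the other 5 have means of at most 24.5 RPM in brain and 22.6 RPM in lung.

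Irf1, a transcription factor induced by interferon gamma, had a peak over each of its 2 annotated starts. The upstream one (chr11:53769748-53770186) had 32.8 and 25.1 RPM in brain at 50 nuclei and 82.7 and 64.4 RPM in brain at 200 nuclei, against 86.7, 64.6 and 150 RPM in lung at 50 nuclei and 84.2, 90.8 and 96.6 RPM in lung at 200 nuclei. The brain libraries of 50 nuclei lay below all lung libraries, and brain 200-nuclei replicate 1 lay within the lung range. The log2 fold was -1.03 ± 0.33 (SE, edgeR adjusted p = 0.0379), the smallest of the 5 called.

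This Irf1 call was lost in 7 of 10 omissions of 1 library: without either brain 50-nuclei library, either brain 200-nuclei library or any 1 lung 200-nuclei library the edgeR adjusted p was 0.0673 to 0.178. It was kept without lung 50-nuclei replicate 1 (0.0452), 2 (0.00761) or 3 (0.0335), with log2 folds from -1.15 to -0.87 over all 10 omissions. It was also lost with relative-log-expression size factors (adjusted p = 0.0517), with edgeR's default filter (0.0695) and with the replicate number as a block (0.187). The downstream start (chr11:53770300-53770522) held 19 reads in brain and 120 in lung, with a log2 fold of -0.49 (95% interval -2.2 to 1.22).

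Nlrc5, the class I transactivator, had 4 peaks of few reads on chromosome 8. The one at the gene end with the lower coordinate (chr8:94434267-94434411) had 8.21 and 3.13 RPM in brain at 50 nuclei and 0 and 2.15 RPM in brain at 200 nuclei, against 11.4, 0 and 9.13 RPM in lung at 50 nuclei and 21.1, 14.6 and 18.9 RPM in lung at 200 nuclei. Brain rested on 5 reads, and a count of 0 allows up to 7.52 RPM in brain 200-nuclei replicate 1 and 8.81 RPM in lung 50-nuclei replicate 2 (3 reads, counting error only). The log2 fold of -2.10 ± 1.15 (SE) was not called (edgeR adjusted p = 0.249).

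Deep within Nlrc5, 3 peaks were not called. The one at chr8:94492030-94492215, centred 57788 bp from that gene end, had 38.3 and 15.7 RPM in brain at 50 nuclei and 30.1 and 19.3 RPM in brain at 200 nuclei, against 9.95, 11.7 and 16.4 RPM in lung at 50 nuclei and 9.42, 2.2 and 7.80 RPM in lung at 200 nuclei. The groups touched only through brain 50-nuclei replicate 2 and lung 50-nuclei replicate 3. With 25.8 ± 10.3 RPM in brain (SD, n = 4) and 9.59 ± 4.68 RPM in lung (SD, n = 6), the log2 fold was 1.5 ± 0.74 (SE) and missed the threshold (edgeR adjusted p = 0.198). The neighbouring peaks at chr8:94486057-94486164 and chr8:94492531-94492629 had log2 folds of 0.83 and 0.96 over both sizes but of -0.63 and -0.25 at 200 nuclei, and the one nearer the far end had -1.83 without brain 200-nuclei replicate 1.

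Without both lung 50-nuclei replicates 2 and 3, the libraries that reached the fewest peaks, 9 of the 19 peaks were called, 8 of them lower in brain and 1 higher, where 12.4% and 9.95% of all tested peaks were called lower and higher. The 4 added were Tap1 with Psmb9 (log2 fold -0.91, edgeR adjusted p = 0.00127), the B2m peak at 1040 bp (-3.02, adjusted p = 0.00291), the Nlrc5 gene-end peak (-2.48, adjusted p = 0.0267) and, higher in brain, the Nlrc5 peak at 57788 bp (1.57, adjusted p = 0.0492). Without brain 50-nuclei replicate 2, only the H2-D1 start peak of the 19 was called, while calls over all peaks fell from 3803 to 1616.

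The tissue difference was also fitted at each size. At 50 nuclei 1 of the 19 peaks was called, the H2-D1 start (-1.83 ± 0.40, SE, edgeR adjusted p = 0.0143), where 1.41% of all tested peaks were called, 0.488% lower in brain and 0.918% higher. At 200 nuclei 1 was called, the upstream H2-D1 peak (-3.44 ± 0.91, SE, edgeR adjusted p = 0.0320), where 2.24% of all were called and 1.24% lower in brain. Neither call was kept in every omission of 1 library. The first was lost without either brain 50-nuclei library, which leaves 1 at that size, while its log2 fold stayed at -1.81 and -1.86. The second was lost without brain 50-nuclei replicate 1, either brain 200-nuclei library (log2 folds -2.93 and -4.30) or any 1 lung 200-nuclei library. The H2-D1 start was called at 200 nuclei as well without lung 50-nuclei replicate 2 or 3 (-1.14 in both, edgeR adjusted p = 0.0434 and 0.0188). Log2 folds at 50 and 200 nuclei were -1.52 and -1.38 at the H2-K1 start, -1.27 and -1.15 at the B2m start, and -1.67 and -0.40 at the Irf1 start.

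**Figure D4:**
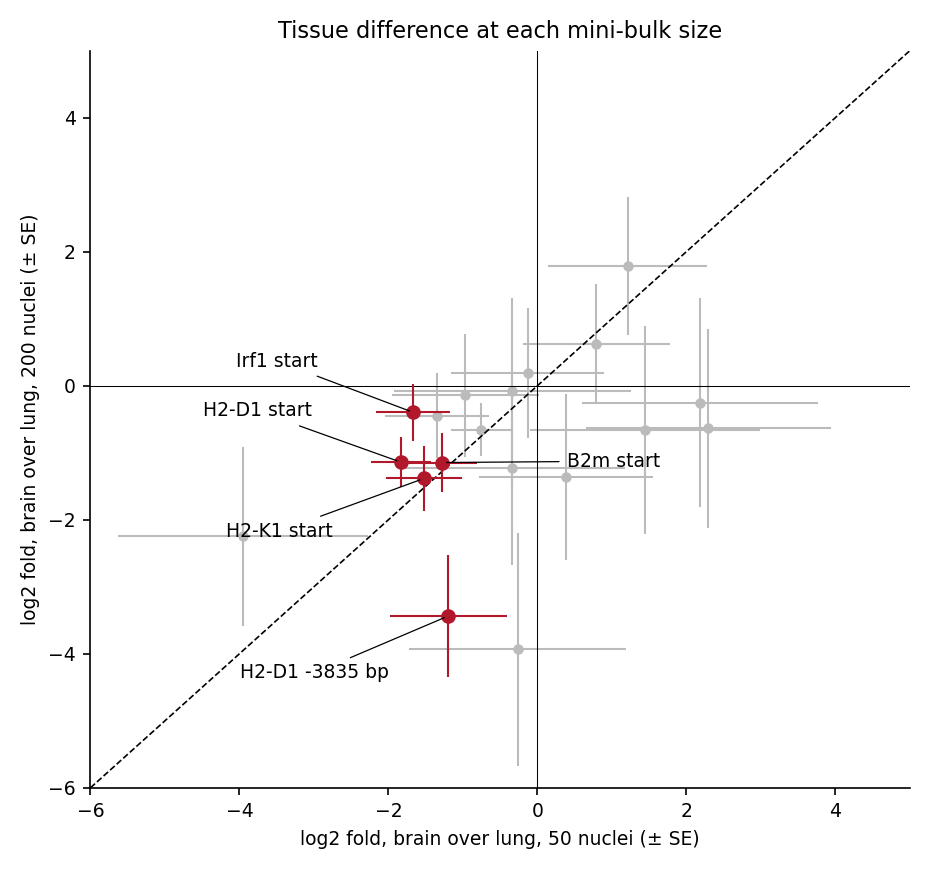
Log2 fold of brain over lung at 50 nuclei (horizontal axis) and at 200 nuclei (vertical axis) with SE for each of the 19 peaks; the dashed line marks equal folds and the 5 peaks called over both sizes are in red. The B2m, H2-K1 and H2-D1 start peaks lie near the line; Irf1 lies above it at -1.67 and -0.40, and the upstream H2-D1 peak below it at -1.19 and -3.44.

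No peak of the 37466 was called between 200 and 50 nuclei in lung or in brain, or for a dependence of the tissue difference on size, so none of the 19 was. Without lung 50-nuclei replicate 1, 252 peaks were called for size in lung, none of them among the 19. At an unadjusted p under 0.05 edgeR had 3071 peaks (8.2%) for size in lung, 426 (1.14%) for size in brain and 1554 (4.15%) for the dependence, where the 19 peaks had 0, 1 and 0, and DESeq2 called 2, 0 and 0 peaks of the whole table. Capture nucleus by nucleus or by area went with the number of nuclei, so the effects of these cannot be told apart. The 1 peak for size in brain was the Irf1 start, with a log2 fold of 1.34 ± 0.54 (SE) for 200 over 50 nuclei, and its tissue fold at 200 nuclei exceeded that at 50 nuclei by 1.27 ± 0.65 (SE). In lung the member peak with the lowest p was the Nlrc5 peak centred 51776 bp from the gene end, at 2.41 ± 1.44 (SE).

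Other genes of the pathway were taken as lists, chosen like the 19 peaks with earlier results of these data known. Of 24 peaks at 17 other class I and loading genes, 1 was lower in brain (4.17%, against 4.39% of all tested peaks) and none higher (5.76% of all), with a median log2 fold of 0.03; this share is that of the whole table. The called peak was at Fcgrt, which encodes the neonatal Fc receptor, a class I-like chain that pairs with beta-2-microglobulin (chr7:45103727-45104157). It had 35.6 and 25.1 RPM in brain at 50 nuclei and 25.1 and 45.1 RPM in brain at 200 nuclei, against 95.3, 76.3 and 58.4 RPM in lung at 50 nuclei and 55.4, 87.1 and 83.6 RPM in lung at 200 nuclei, and a log2 fold of -1.21 ± 0.38 (SE, edgeR adjusted p = 0.0330). The list had no call without any 1 brain library, without lung 200-nuclei replicate 2 or 3, with edgeR's default filter or with the replicate block. The general chaperones of loading were not called, with log2 folds of -0.25 at Calr (95% interval -0.67 to 0.17), -0.21 at Canx and 0.35 at Pdia3, and neither was Psme2, a proteasome activator subunit, at 0.09.

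Of 24 peaks at 13 genes of the constitutive proteasome core, 1 was lower in brain (4.17%, against 4.39% of all), outside Psma3 (-1.52 ± 0.46, SE, edgeR adjusted p = 0.0280), and the median log2 fold was 0.23. MHC class II genes, which present peptides from outside the cell and are used by professional antigen-presenting cells, had 6 of 24 peaks lower in brain (25.0%, against 4.39% of all) and none higher, with a median of -1.28. The Cd74 start peak (invariant chain, chr18:60803577-60803944) had 13.1 ± 7.95 RPM in brain (SD, n = 4) and 68.3 ± 19.8 RPM in lung (SD, n = 6), a log2 fold of -2.46 ± 0.49 (SE, edgeR adjusted p = 0.000733). The others were a further peak at Cd74 and peaks at Ciita, the class II transactivator, H2-Aa, H2-DMb2 and H2-Eb1. Fitted at each size, 1 of the 24 class II peaks was called at 50 nuclei and 0 at 200 nuclei. Without any 1 lung 200-nuclei library 2 to 4 were called, and 6 to 8 without any 1 lung 50-nuclei library. With the replicate number as a block 3 were called. The proteasome list had no call with that block or without any 1 lung 200-nuclei library, and 1 to 4 without any 1 lung 50-nuclei library.

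Genes of interferon signalling and of the complex that NLRC5 joins had 7 of 72 peaks lower in brain (9.72%, against 4.39% of all) and 1 higher (5.76% of all), with a median log2 fold of -0.23. The start of Ifngr1, the ligand-binding chain of the interferon gamma receptor, had 109 ± 9.87 RPM in brain (SD, n = 4) and 252 ± 29.5 RPM in lung (SD, n = 6), a log2 fold of -1.19 ± 0.23 (SE, edgeR adjusted p = 0.000588). Ifnar1, a chain of the type I interferon receptor, had -0.72 ± 0.24 (SE, edgeR adjusted p = 0.0460). Irf2, binding the same element as IRF1, had peaks lower in brain at its start (-1.54) and within the gene toward its other end (-1.86). It also had 1 peak deeper within the gene higher in brain (4.72, on 36 brain and 27 lung reads). Tyk2 and Socs3 had the remaining 3. The NLRC5 partners were not called, with log2 folds of -0.50 at Rfx5, 0.11 at Rfxank, 0.30 at Rfxap, 0.57 at Creb1 and -0.08 at the Nfya start.

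Interferon-induced genes had 2 of 30 peaks lower in brain (6.67%, against 4.39% of all) and none higher, with a median log2 fold of -0.60. Bst2, which encodes tetherin, had -1.86 ± 0.47 (SE, edgeR adjusted p = 0.00825). At chr19:34577256-34577369, just outside Ifit2, no brain library had a read and the lung libraries had 101, so that brain was at least 6.65-fold lower (3 reads over the brain group as the floor, edgeR adjusted p = 0.0134).

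**Figure D5:**
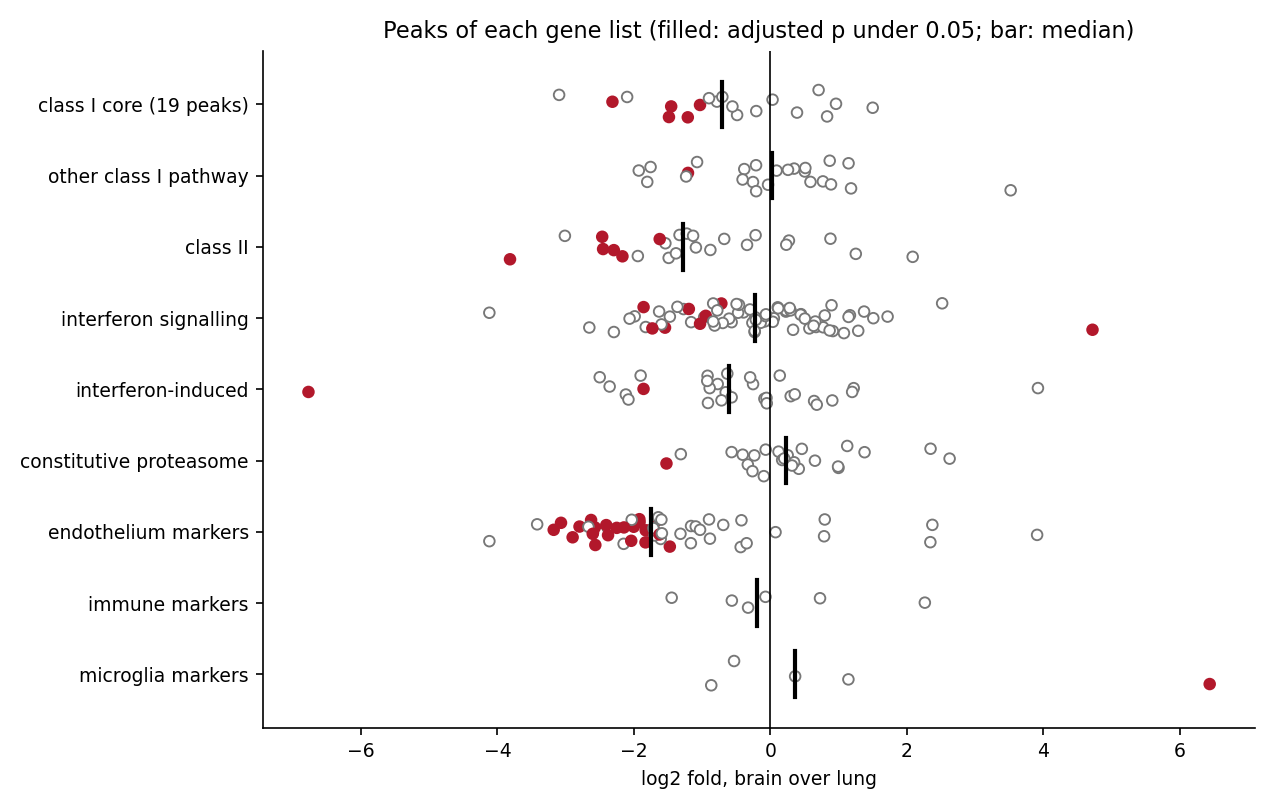
Log2 fold of brain over lung (horizontal axis) for each tested peak of 9 gene lists, with the median as a bar and called peaks filled; the vertical scatter within a row carries no meaning. The 19 peaks described here, labelled as the class I core, have a median of -0.70, class II -1.28, endothelial markers -1.75, and other class I genes 0.03.

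Endothelial and alveolar type 1 markers, like the class II genes above, moved with the tissues in the direction of the called class I peaks. No immune marker peak was called, and the 1 microglial peak called was higher in brain. Over 54 peaks at 12 endothelial genes, brain libraries had 514 to 731 RPM and lung libraries 1647 to 2436 RPM. Of these peaks, 24 were called lower in brain (44.4%, against 4.39% of all tested peaks) and none higher (5.76% of all). Of the 29 alveolar type 1 peaks, 6 were called lower in brain (20.7%) and none higher, with a median log2 fold of -1.33. The summed level of the 19 class I peaks was 395 to 517 RPM in brain and 791 to 989 RPM in lung. Over 6 peaks at 5 of 10 immune marker genes the sums overlapped, at 40.1 to 59.5 RPM in brain and 21.9 to 60.8 RPM in lung, with none called, while Cd3e, Itgam, Itgax, Lyz2 and Marco had no peak. Over 5 peaks at 4 microglial genes brain had 88.1 to 118 RPM and lung 22.7 to 98.6 RPM, so the sums overlapped. The 1 peak called higher in brain was at Sall1, and 5.76% of all tested peaks were called higher. Cx3cr1 and Trem2 had no peak. The part of these cell types in the class I differences was not tested.

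Across the 10 libraries, the peaks outside these genes whose log2 RPM followed the B2m start peak most closely were at Rab11fip1 (Pearson's r = 0.967), Rin2 (0.964), Parp4 (0.961), Grk5 (0.953) and Plec (0.948), out of 11369 assigned peaks with a mean of at least 20 RPM. The same measure was 0.758 for the H2-K1 start, 0.750 for the H2-D1 start, 0.615 for the Irf1 start and 0.484 for the Tap1 start. These are descriptions over 10 libraries of 2 tissues whose depths differ, and the 5 peaks were picked for their high values.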

How the data were processed

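The submitters' processing notes name the build mm10 and, without saying what each did, MACS2 2.2.7.1, Bowtie2 2.4.5, SAMtools 1.14, Trimmomatic 0.36, Picard, R 4.1.0, bcl2fastq 2.20 and deepTools 3.1.3. The authors deposited raw read counts per peak for the 10 libraries, unnormalized; how peaks were merged, whether duplicates were removed and whether Tn5 cut sites were shifted was not given in the sources used here, and retained duplicates would widen the spread. Peak coordinates are those of the deposited table.

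Peaks were assigned with RefSeq gene extents of GRCm38.p6. Counts of peaks with at least 10 reads in all were tested in R 4.3.3 with edgeR 4.0.16 (TMM, quasi-likelihood F tests, 1 mean per tissue and size, common dispersion 0.350), adjusted by Benjamini-Hochberg over all peaks and called at 0.05; folds are brain over lung or 200 over 50 nuclei, and 95% intervals use the model's degrees of freedom. The script was tested on simulated data. RPM is reads per 1000000 nuclear-peak reads, without TMM. Every peak of the 10 genes is accounted for; those within 1000 bp of a gene end, called, or highest for their gene are given by library where reads allow. The 5 likeness peaks were ranked on log2(RPM + 1). Members and lists were chosen with earlier results of these data known. Intervals for counts of 0 cover counting error only. Alternatives were other scalings, DESeq2 1.42.0, other filters, omitted libraries, a replicate block and other assignment rules. One marker gene of the lists is not reported here.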

Additional observations from a re-analysis of the deposited data

Results flagged for a closer look

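At the H2-D1 start peak, brain 200-nuclei replicate 1 had 95.3 RPM, while the other 3 brain libraries had 49.3 to 51.6 RPM, a gap of 0.95 of the group's range. Over the 19 peaks and 2 tissues, 38 groups of libraries were examined in this way and this was the only one whose extreme library stood so far apart. The cut-off used flags about 1 in 20 groups by chance, so 1 flagged group among 38 is not unusual. The chance of a gap as large as this one was not calculated. Without that library the log2 fold of brain over lung at this peak was -1.72, against -1.49 with it.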

How the results depend on the processing

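Scaling by library totals, which counts mitochondrial reads, gave all peaks a median log2 fold of -3.34, against 0.07. Then 17 of the 19 peaks were called lower in brain (12 at 50 and 18 at 200 nuclei). Calls numbered 22 for other class I genes, 21 for the constitutive proteasome, 23 for class II, 66 for interferon signalling and 28 for interferon-induced genes. Of all 37466 tested peaks, 30331 were then called (19750 at 50 and 29400 at 200 nuclei), so these counts follow a shift of the whole table. Given that shift, no direction is drawn from this scaling. It turned the log2 fold to -2.93 at the B2m peak at 358 bp. At the Tap2 peaks at 35 and 14428 bp it turned to -2.75 and -3.46. At the Nlrc5 peaks at 51776, 57788 and 58245 bp it turned to -2.39, -1.88 and -2.37. With lung 50-nuclei replicates 2 and 3 left out, counts were 9 for the 19 peaks (5 at 200 nuclei), 2 for other class I, 2 for proteasome, 16 for signalling and 7 for induced genes. Leaving out 1 library at a time gave 1 to 7 calls among the 19 peaks (0 to 2 at 50 and 0 to 3 at 200 nuclei), where calls over all peaks and both sizes ranged from 1585 to 7023, 0 to 2 for other class I, 0 to 4 for proteasome, 2 to 8 for class II, 1 to 14 for signalling and 0 to 6 for induced genes. It gave log2 folds of -2.83 to 1.06 at the B2m peak at 358 bp, -0.44 to 0.60 and -0.26 to 0.25 at the Tap2 peaks at 1210 and 14428 bp, and -1.83 to 3.39 at the Nlrc5 peak at 58245 bp. At 50 nuclei DESeq2 gave 2 calls among the 19 (1836 over all peaks) and nuclear-peak totals gave 2 (688), against 1 (527). DESeq2 also gave 3 for the proteasome over both sizes (5513 over all peaks, against 3803). With edgeR's default filter 0 of the 19 were called at 200 nuclei (414 over all peaks, against 839). Over both sizes that filter gave 0 for other class I, 0 for proteasome and 3 for signalling genes (2033 over all peaks). Assignment within 10000 bp gave 8 called peaks among 27.

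The labels number replicates alike in all groups but do not say that a number marks a shared animal or section. Deviations of same-numbered libraries from their group means correlated at -0.05 to 0.04. Of 6 lung libraries, 4 correlated best with their own number, and whether this exceeds chance was not tested. With the replicate number as a block, 4 of the 19 peaks were called (2042 peaks in all, against 3803), with 0 for other class I, 0 for proteasome, 3 for class II, 4 for signalling and 1 for induced genes, and the B2m peak at 358 bp had a log2 fold of -0.12. The cause of these changes was not tested. Brain rests on 1549035 nuclear reads in all, and folds at peaks with under 20 brain reads are imprecise.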

Other observations

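Beyond the 5000 bp used to assign peaks, 7 peaks lay between 5000 and 10000 bp from Irf1, of which 3 were called lower in brain, 4 were not called and none was higher (4.39% and 5.76% of all tested peaks were lower and higher). The peak at chr11:53761870-53762222, 7792 bp below the gene, had 19.2 and 9.40 RPM in brain at 50 nuclei and 0 and 17.2 RPM in brain at 200 nuclei, against 93.8, 126 and 80.3 RPM in lung at 50 nuclei and 65.4, 55.6 and 99.5 RPM in lung at 200 nuclei. Its log2 fold was -2.88 ± 0.49 (SE, edgeR adjusted p = 0.000135), larger in size than the -1.03 at the Irf1 start. The peak at chr11:53763513-53764153 had 74.7 ± 22.5 RPM in brain (SD, n = 4) and 182 ± 23.6 RPM in lung (SD, n = 6), with a log2 fold of -1.27 ± 0.27 (SE, edgeR adjusted p = 0.00143), and the peak at chr11:53788317-53788523, beyond the other end, had -2.13 ± 0.56 (SE, edgeR adjusted p = 0.0108). Whether these peaks act on Irf1 was not measured.

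Upstream of H2-D1, a peak in reach of the gene but nearer to Ddx39b (chr17:35258278-35258453) had 13.4 ± 10.3 RPM in brain (SD, n = 4) and 57.5 ± 33.1 RPM in lung (SD, n = 6), with a log2 fold of -2.06 ± 0.53 (SE, edgeR adjusted p = 0.00953). Around Tapbp, 3 peaks nearer to Zbtb22 or Rgl2 were not called, with log2 folds of -0.30, 0.93 and 0.86.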
